A study of Mus musculus with 16 samples.

Results

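Ileal RNA was examined for 9 genes that encode carriers of amino acids and small peptides: Slc15a1, Slc6a19, Slc6a20a, Slc7a9, Slc3a1, Slc1a1, Slc7a7, Slc7a8 and Slc16a10. They were chosen by name, as the 9 rows with these symbols among the 24940 genes of the count table, and all 9 passed the filter on low counts in every comparison. The 16 libraries came from the ileum of mice of the C57BL/6 strain, cut just proximal to the cecum, and were sequenced as polyA RNA. All mice carried 2 floxed Bcl6 alleles (Bcl6 fl/fl). Those without Cre are called WT, and those that also carried Alb-cre, in which the albumin promoter drives Cre in hepatocytes, are called LKO. Each sex gave 4 WT and 4 LKO libraries. The mice were fed ad libitum or fasted for 4 hours, which of them were fasted is not given in the sources used here, and neither is their age.

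Dietary protein reaches the ileal enterocyte as free amino acids and as di- and tripeptides. Carriers in the apical (brush border) membrane take these up with the help of proton, sodium or exchange gradients. Carriers in the basolateral membrane then pass amino acids on to the blood. Slc15a1 (PEPT1) is the apical proton-coupled carrier of small peptides. Slc6a19 (B0AT1) takes up neutral amino acids with sodium, and Slc6a20a (an imino acid carrier, SIT1) takes up proline and related imino acids. Slc7a9 and Slc3a1 are the light and heavy subunits of the exchanger of cystine and cationic amino acids. Slc1a1 (EAAT3) takes up glutamate and aspartate. On the basolateral side, Slc7a7 (y+LAT1) and Slc7a8 (LAT2) are light subunits that join the heavy subunit Slc3a2, the former for cationic and the latter for neutral amino acids, and Slc16a10 (TAT1) lets aromatic amino acids out.

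The bases just before the transcription start are shown for 4 of the genes, since 3 of them (Slc15a1, Slc7a9 and Slc16a10) rose and fell together from library to library and Slc3a1 did not. Each line holds the 150 bases before the RefSeq start on GRCm38.p6, 5′ to 3′ on the strand of the gene. Capitals mark a match to a motif named after them.
Slc15a1 (chr14:121505255-121505404, minus strand): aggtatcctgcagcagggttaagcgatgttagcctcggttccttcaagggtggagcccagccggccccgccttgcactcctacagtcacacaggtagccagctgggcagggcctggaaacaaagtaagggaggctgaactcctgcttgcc
Slc7a9 (chr7:35448942-35449091, plus strand): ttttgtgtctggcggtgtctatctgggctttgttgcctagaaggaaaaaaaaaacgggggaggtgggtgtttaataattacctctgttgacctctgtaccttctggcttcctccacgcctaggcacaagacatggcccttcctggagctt
Slc16a10 (chr10:40142255-40142404, minus strand): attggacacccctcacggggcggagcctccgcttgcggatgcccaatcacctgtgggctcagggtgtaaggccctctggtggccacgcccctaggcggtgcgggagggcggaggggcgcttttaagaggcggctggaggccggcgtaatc
Slc3a1 (chr17:85028197-85028346, plus strand): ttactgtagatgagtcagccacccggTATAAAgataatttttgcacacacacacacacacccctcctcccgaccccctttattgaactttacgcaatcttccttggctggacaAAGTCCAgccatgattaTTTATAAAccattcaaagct

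Letters of sites for enterocyte transcription factors were looked for on both strands, in the 250 bases before the start. GTTAAT stands for the core of HNF1 sites. The core of HNF4 sites was searched as AAGTCCA. For CDX factors the letters were TTTATG. The TATA box was searched as TATAAA. The RefSeq table held the start used by the count table for 7 of the 9 genes, and Slc6a19 and Slc1a1 had only another start. It listed 5 starts for Slc7a7 and 2 for Slc7a9, and only the start of the count table was searched. Which start is used in ileum was not tested. Slc3a1 held AAGTCCA with its first base 37 bases before the start. It held TATAAA at 124 and 18 bases on the gene's strand and at 20 bases on the other strand, the last pair overlapping. GTTAAT lay 86 bases before the start of Slc7a7, 56 before that of Slc6a20a and 232 before that of Slc16a10, and Slc6a20a also held AAGTCCA at 154 bases. None of these letters lay in the window of Slc15a1, Slc7a9 or Slc7a8, and the CDX letters lay in none of the 7. Only these exact letters were searched, so a site that differs from them by a base would be missed. Of all 32851 promoter windows, 6.43% held the HNF1 letters, 3.36% those of HNF4, 10.8% those of CDX and 12.4% those of the TATA box.

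Per the table's coordinates on mm10, the apical carriers lie at chr14:121459621-121505254 (Slc15a1, minus strand), chr13:73679745-73700780 (Slc6a19, minus), chr9:123636907-123678832 (Slc6a20a, minus), chr7:35449092-35466034 (Slc7a9, plus), chr17:85028347-85064241 (Slc3a1, plus) and chr19:28835166-28913960 (Slc1a1, plus). The basolateral carriers lie at chr14:54369442-54409472 (Slc7a7, minus), chr14:54722215-54781886 (Slc7a8, minus) and chr10:40033535-40142254 (Slc16a10, minus). Reads over the exons of 1 RefSeq transcript were counted for each.

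The summed counts ran from 15739601 to 20467119 in 15 libraries and reached 60324336 in female LKO replicate 1. The 9 transporters took 0.186% to 0.251% of them. Xist, the RNA that coats the inactive X chromosome, matched the labelled sex in all 16 libraries. Bcl6 itself averaged 15.9 ± 1.61 CPM (counts scaled to a common library size with TMM factors) in male WT, 18.9 ± 2.05 in male LKO, 12.1 ± 2.92 in female WT and 20.7 ± 5.03 in female LKO ileum (SD, n = 4 each), which does not check the hepatocyte deletion. Epithelial markers summed to between 19830 and 25330 CPM, and those of the distal ileum (among them the bile acid carrier Slc10a2) to between 4230 and 7885 CPM, so the labelled tissue was there. Markers of cecum and colon, which should be scarce in ileum, passed 200 CPM in 5 libraries (male WT replicates 3 and 4, male LKO replicate 2, female WT replicates 1 and 4) and reached 1217 CPM, and lay between 26.8 and 78.1 CPM in the others. B cell markers ranged from 18.8 to 425.5 CPM. In pieces of whole tissue like these, fewer cells of a type and less RNA per cell cannot be told apart.

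All 9 transporters were well expressed, over a range from near the top of the ileal transcriptome to near its middle. Levels of different genes are compared per kilobase of transcript, as RPKM (CPM divided by the transcript's length in kilobases). Slc7a9 averaged 192 RPKM over the 16 libraries and Slc3a1 175, with ranges of 155 to 228 and 137 to 219. Slc6a19 followed with 153.5 RPKM (109 to 189.7), and Slc7a7, the highest of the basolateral carriers, with 123 RPKM (94.9 to 158). These 4 neighbours overlapped over the libraries, although within a library Slc7a9 was above Slc3a1 in 12, Slc3a1 above Slc6a19 in 12 and Slc6a19 above Slc7a7 in 14 of 16. The peptide carrier Slc15a1 averaged 74.4 RPKM and lay below Slc7a7 in 16 of 16 libraries without overlap. Slc1a1 averaged 55.9 and Slc6a20a 36.5 RPKM, and over the libraries Slc1a1 overlapped with both Slc15a1 and Slc6a20a. A clear step separated these from Slc7a8 at 11.3 and Slc16a10 at 8.56 RPKM, which overlapped each other, although Slc7a8 was higher in 16 of 16 libraries. Slc7a9 stood at the 98.0th percentile of the genes tested and Slc16a10 at the 54.5th.

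**Figure D1:**
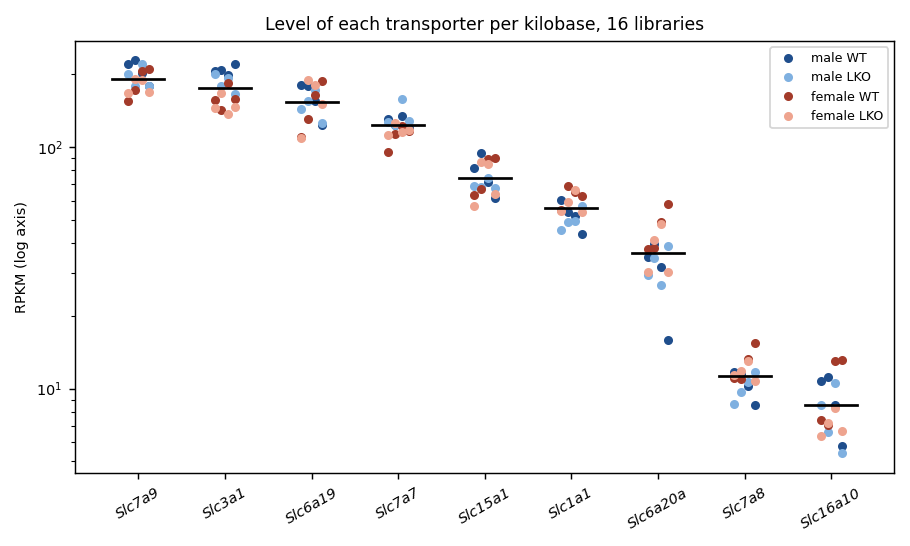
RPKM of each transporter (vertical axis, logarithmic) in 16 ileum libraries, ordered from left to right by the mean, which the line marks. Each point is 1 library, coloured by group; Slc7a9 averages 192 RPKM and Slc16a10 8.56, and the points of Slc6a20a and Slc7a8 do not overlap.

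The 2 subunits of the cystine exchanger were close to equal per kilobase. The ratio of Slc7a9 to Slc3a1 RPKM was 1.00 ± 0.126 in male WT, 1.05 ± 0.0737 in male LKO, 1.16 ± 0.146 in female WT and 1.21 ± 0.112 in female LKO ileum (SD, n = 4 each). The basolateral light subunits were far from equal: Slc7a7 exceeded Slc7a8 12.3 ± 1.495 times in male WT, 13.3 ± 1.88 times in male LKO, 8.89 ± 1.13 times in female WT and 10.1 ± 0.919 times in female LKO. Slc6a19 exceeded Slc15a1 1.90 to 2.15 times on the group means. These ratios were not tested.

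With hepatic Bcl6 deletion, no difference in the 9 transporters passed the threshold, an adjusted p of 0.05 from edgeR's quasi-likelihood test over all genes. In males 0 of 9 were called, where 0.0527% of 15169 genes were. In females 0 of 9 were called, against 0.0392% of 15298 genes, and with both sexes in 1 fit 0 of 9, against 0.269% of 15598 genes. With DESeq2 the counts were also 0 of 9, where it called 0.33% of genes in males, 1.23% in females and 1.77% over both sexes. At an unadjusted p under 0.05, edgeR passed 1 member in males (5.29% of all genes), 0 in females (11.7%) and 1 over both sexes (11.2%), and DESeq2 1 in each (4.01%, 9.43% and 9.22%). In 8 of 9 the both-sexes difference was negative, with a median log2 fold change of -0.09 beside 0.00065 over all genes tested. Groups of the same sex overlapped in all 9 transporters, while 2.97% of genes did not overlap in males and 6.31% in females.

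**Figure D2:**
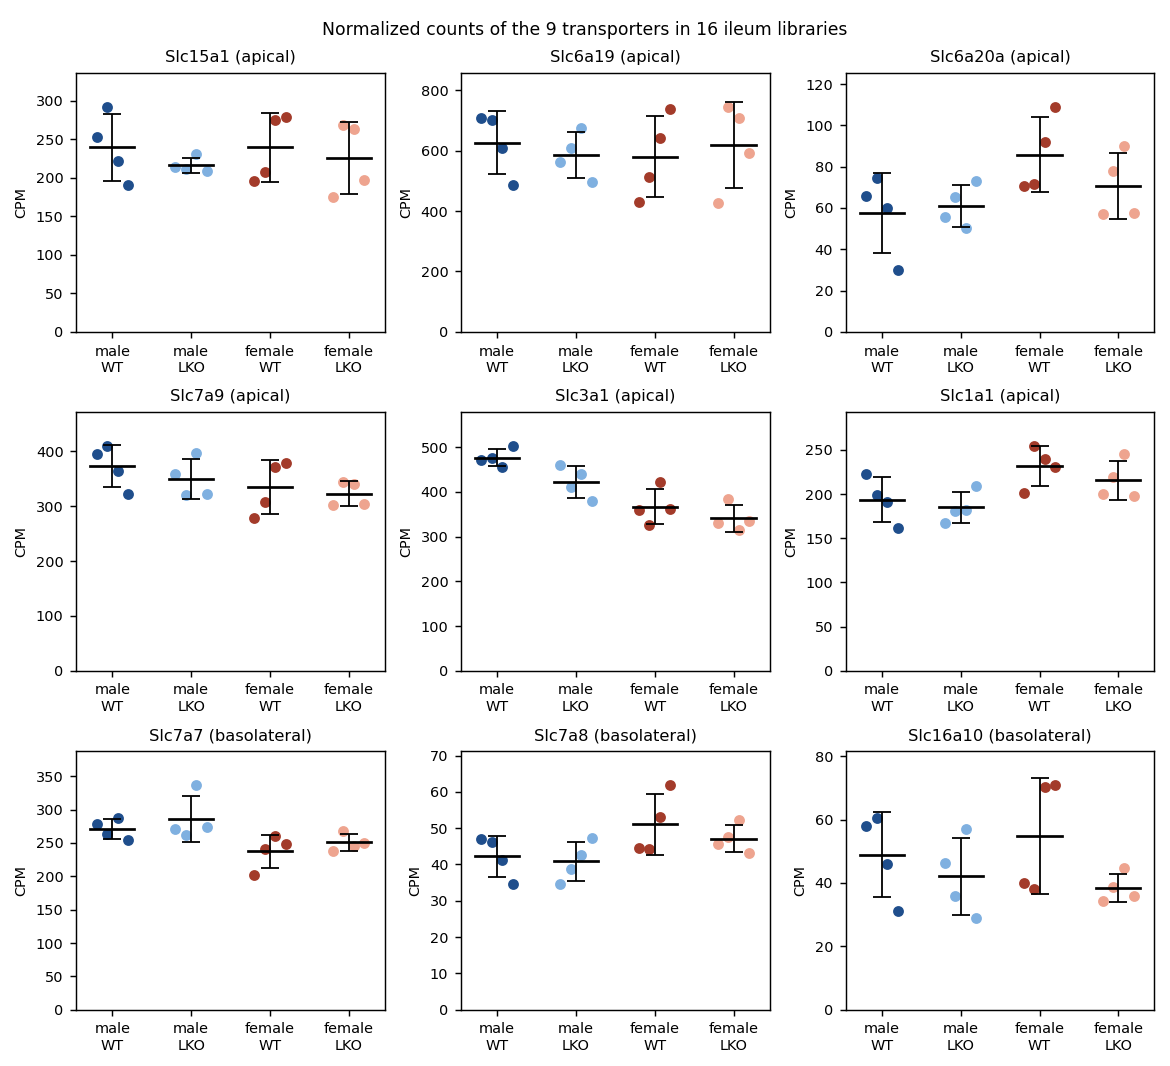
TMM-scaled CPM (vertical axes, from 0) of the 9 transporters in each of the 4 groups. Points are libraries, the thick line is the mean and the bar the SD (n = 4); the 4 Slc3a1 points of male WT lie above all 4 of female WT, and within a sex WT and LKO points overlap in every panel.

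Slc16a10, the exit route for aromatic amino acids, had the largest genotype difference of the 9 and also the widest spread. Male WT ilea held 58.1, 60.5, 46.1 and 31.3 CPM, and male LKO ilea 46.3, 35.8, 57.0 and 29.1. Female WT ilea held 40.1, 38.1, 70.3 and 71.0 CPM and female LKO ilea 34.4, 38.8, 44.6 and 35.97. The female LKO values sat together at the foot of the female WT range, which split into a low and a high pair. The log2 fold change, LKO over WT, was -0.52 in females (SE 0.24, edgeR adjusted p = 0.453), -0.21 in males (SE 0.29, adjusted p = 0.9995) and -0.37 over both (SE 0.19, adjusted p = 0.503). The interval of 2 SE around the last ran from -0.75 to 0.01. It was negative in all 29 alternative fits over both sexes, where adjusted p ran from 0.304 to 0.702. In females DESeq2 gave -0.51, with an unadjusted p of 0.0080 and an adjusted p of 0.191. The difference in males alone turned to 0.35 with the title number as a covariate. Of the 5 libraries rich in cecum and colon markers 4 were WT, and without all 5 the difference was -0.47 (adjusted p = 0.529).

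Slc3a1, the heavy subunit of the cystine exchanger, was the member with an unadjusted p under 0.05 for genotype in males and over both sexes. Over both sexes it was -0.14 on the log2 scale (SE 0.056, edgeR adjusted p = 0.326), with 2 SE reaching from -0.25 to -0.029. It was -0.17 in males (SE 0.070, adjusted p = 0.893) and -0.11 in females (SE 0.087, adjusted p = 0.632). In its partner Slc7a9 the both-sexes difference was -0.07 (SE 0.068, adjusted p = 0.750), with an interval of -0.21 to 0.064.

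The other brush border carriers lay close to 0 or within a wide interval. Slc15a1 was -0.11 on the log2 scale over both sexes (SE 0.11, edgeR adjusted p = 0.752). Slc6a19 was -0.0043 (SE 0.135, adjusted p = 0.994), with a 2 SE interval of -0.27 to 0.27. Slc6a20a was 0.09 in males (SE 0.29) and -0.29 in females (SE 0.20), and Slc1a1 -0.09 over both sexes (SE 0.067, adjusted p = 0.687). Of the basolateral light subunits, Slc7a7 was the 1 positive member, 0.08 (SE 0.057, adjusted p = 0.669), and Slc7a8 was -0.08 (SE 0.081, adjusted p = 0.764).

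**Figure D3:**
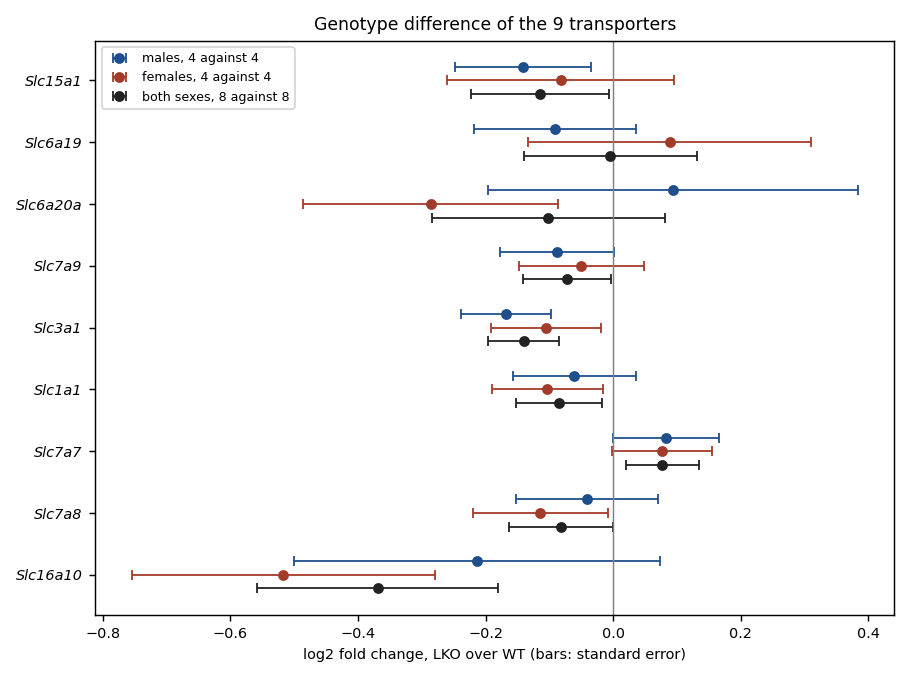
Log2 fold change, LKO over WT (horizontal axis), of the 9 transporters in males, in females and over both sexes, each with its standard error. Slc16a10 lies furthest from 0, at -0.52 in females, and no point has an adjusted p under 0.05.

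The genotype difference was not shown to depend on sex. The interaction (male minus female effect) called 0 of 9 members, where edgeR and DESeq2 each called 0% of genes; at an unadjusted p under 0.05, edgeR passed 879 of 15598 genes and DESeq2 966 of 20510. Among the members it ran from -0.18 for Slc6a19 (SE 0.28) to 0.38 for Slc6a20a (SE 0.36), with a smallest unadjusted p of 0.318.

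Sex went with larger differences. Over both genotypes 3 of 9 transporters passed the threshold in males against females, where 11% of 15598 genes did: Slc3a1 and Slc7a7 were higher in males and Slc1a1 was lower. DESeq2 called these 3 and Slc7a8, 4 of 9, where it called 15.4% of 15737 genes. Within a genotype edgeR called 0 of 9 in WT (0.25% of 15229 genes) and 0 of 9 in LKO (0.0984% of 15250 genes), with 4 at an unadjusted p under 0.05 in each, as in 13.9% of all genes in WT and 22.6% in LKO. DESeq2 called Slc3a1 alone in each, 1 of 9, where it called 1.7% of 14091 genes in WT and 6.91% of 15037 in LKO. The median of the 9 was -0.02 on the log2 scale, beside -0.0013 over all genes tested. Library names number the males 1 to 8 and the females 9 to 16, so sex and the order of the libraries cannot be told apart.

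Slc3a1 had the smallest p for sex of the 9. Male WT ilea held 472, 476, 457 and 503 CPM and male LKO ilea 459.7, 411, 441 and 379.5. Female WT ilea held 359, 326.5, 422 and 361 CPM and female LKO ilea 331.5, 384, 315 and 334. All 4 male WT values lay above all 4 female WT values. It was the 1 member without overlap there, where 8.38% of genes had none, in either direction. In LKO mice, where 12.9% of genes did not overlap and 0 of 9 members did so, male replicate 4 fell below female replicate 2. The log2 fold change, male over female, was 0.34 over both genotypes (SE 0.056, edgeR adjusted p = 0.00256), a mean of 449.8 against 354 CPM. It was 0.37 in WT (SE 0.077, adjusted p = 0.0685) and 0.31 in LKO (SE 0.077, adjusted p = 0.0778).

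Slc3a1 shares 765 bases at its 3′ end with Prepl, a peptidase-like gene on the opposite strand. Prepl averaged 158.5 CPM and was also higher in males, by 0.26 on the log2 scale (SE 0.050, edgeR adjusted p = 0.0053). For genotype over both sexes Prepl was -0.12 (SE 0.050, edgeR adjusted p = 0.342), beside -0.14 in Slc3a1. The library kit keeps the strand, but the strand setting of the counting is not given in the sources used here. In the female libraries Xist averaged 457 CPM and its antisense partner Tsix 0.445 CPM, so reads of the one were not counted for the other there. The part of Prepl in the Slc3a1 value was not tested.

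Slc7a7, which exports cationic amino acids, was higher in males by a smaller amount. Male WT ilea held 279, 264, 287.5 and 254 CPM and male LKO ilea 272, 262, 337 and 273. Female WT ilea held 202, 240.5, 259.9 and 248 CPM and female LKO ilea 238, 269, 246 and 250.5. Male and female ranges overlapped in both genotypes. Over both it was 0.19 on the log2 scale (SE 0.057, edgeR adjusted p = 0.0383), 0.18 in WT and 0.19 in LKO. When 1 library was left out, the adjusted p stayed under 0.05 without male WT replicate 2 or 4, male LKO replicate 2, female WT replicate 3 or 4, or female LKO replicate 2. It rose above 0.05 in the other 10 of 16 fits, to 0.0846 at most, with differences of 0.15 to 0.20. Slc7a7 overlaps Oxa1l on the other strand by 228 bases, a gene at 87.0 CPM whose sex difference was 0.068 (SE 0.047, adjusted p = 0.344).

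Slc1a1, the glutamate and aspartate carrier, was lower in males. Male WT ilea held 223, 199, 191 and 161 CPM and male LKO ilea 167, 181, 182 and 209.5. Female WT ilea held 202, 255, 239.9 and 231 CPM and female LKO ilea 199.9, 219, 246 and 198. The ranges overlapped in both genotypes. The log2 fold change was -0.24 over both (SE 0.067, edgeR adjusted p = 0.0289), -0.27 in WT and -0.22 in LKO. Its adjusted p rose to between 0.0546 and 0.0622 without male LKO replicate 1 or 3, female WT replicate 2 or female LKO replicate 3, with differences of -0.24 to -0.21.

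Slc7a8, the basolateral carrier of neutral amino acids, was close to the threshold. Male WT ilea held 47.0, 46.2, 41.3 and 34.55 CPM and male LKO ilea 34.75, 38.8, 42.7 and 47.2. Female WT ilea held 44.7, 44.3, 53.2 and 62.0 CPM and female LKO ilea 45.7, 47.5, 52.1 and 43.25. The groups overlapped in both genotypes. The log2 fold change was -0.24 (SE 0.081, edgeR adjusted p = 0.0620), with an adjusted p of 0.0464 by DESeq2.

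The imino acid carrier Slc6a20a spread most among the brush border genes. Male WT ilea held 65.6, 74.4, 59.9 and 29.8 CPM and male LKO ilea 55.5, 65.1, 50.4 and 73.0. Female WT ilea held 70.8, 71.75, 91.7 and 108.9 CPM and female LKO ilea 57.3, 77.7, 89.95 and 57.3. Male WT replicate 4 was the lowest of all 16, and with or without it male WT overlapped female WT. The log2 fold change was -0.39 (SE 0.18, edgeR adjusted p = 0.169). Of the 100-base windows of its transcript, 15.2% are identical in its close copy Slc6a20b, and reads from them were dropped as mapping to more than 1 place. The other 8 transporters share no such window with another gene. Slc6a20b itself was near the detection limit, at 0.753 CPM over the 16 libraries.

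The other 4 transporters gave no call between the sexes. Slc15a1 held 253, 292, 222 and 191 CPM in male WT, 215, 212, 231 and 209 in male LKO, 195, 207.5, 275.5 and 279.5 in female WT, and 176, 268, 264 and 197 in female LKO ilea. Slc6a19 held 706, 701, 609.5 and 485 CPM in male WT, 562, 609, 675 and 495 in male LKO, 429.9, 514, 641 and 736.5 in female WT, and 427, 744, 706.5 and 590.5 in female LKO ilea. In both genes male and female values overlapped in both genotypes, and the male LKO values of Slc15a1 lay close together. Slc7a9 held 395, 410, 364 and 323 CPM in male WT, 359, 321, 396 and 322 in male LKO, 278, 308.5, 371 and 379 in female WT, and 302, 344.5, 340.4 and 305 in female LKO ilea. Its log2 fold change, male over female, was 0.14 (SE 0.068, edgeR adjusted p = 0.190), against 0.34 in its partner Slc3a1. Slc15a1 was -0.03 (SE 0.11), Slc6a19 0.02 (SE 0.135) and Slc16a10 -0.02 (SE 0.19).

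**Figure D4:**
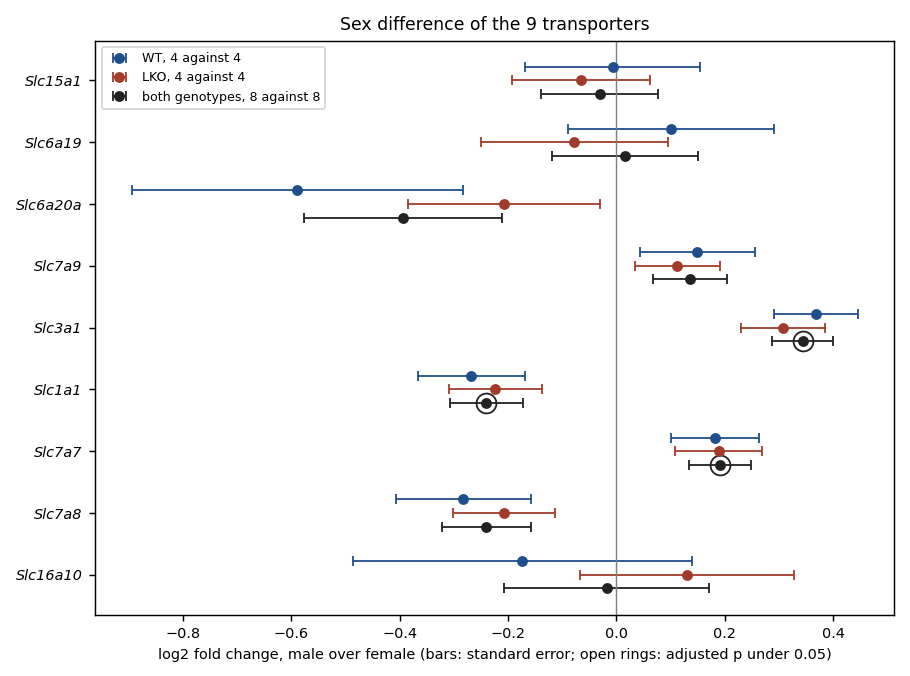
Log2 fold change, male over female (horizontal axis), of the 9 transporters in WT, in LKO and over both genotypes, each with its standard error; rings mark an edgeR adjusted p under 0.05. Slc3a1 (0.34) and Slc7a7 (0.19) lie to the right and Slc1a1 (-0.24) to the left with rings, over both genotypes only.

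The makeup of the tissue moved with sex too. Of 8 smooth muscle markers 7 were lower in males past the threshold, with a median log2 fold change of -0.37, and their sum was 3446 to 4483 CPM in males and 4523 to 6594 in females with no overlap. Of 12 epithelial markers 7 were higher in males, with a median of 0.15, and their sum was 23170 to 25330 CPM in males and 19830 to 23280 in females. All 8 and all 12 of these markers were detected in every group. With the smooth muscle sum as a covariate, chosen after seeing the data, 0 of 9 transporters and 10 of 15598 genes passed the threshold. Slc3a1 was then 0.28 (adjusted p = 0.410), Slc7a7 0.14 (adjusted p = 0.709) and Slc1a1 -0.13 (adjusted p = 0.763). Because the smooth muscle sums did not overlap between the sexes, this fit could hardly tell sex and smooth muscle apart. Scaled to the epithelial markers in place of TMM, the median of all genes moved by -0.18, and 5755 of 15598 genes passed the threshold. Slc7a7 was then 0.014 (adjusted p = 0.847) and Slc3a1 0.17 (adjusted p = 0.0174). Slc1a1 was -0.42, Slc7a8 -0.42 and Slc6a20a -0.57, all past the threshold, as was Slc3a1. Without the 5 libraries rich in cecum and colon markers, Slc3a1 alone of the 9 passed (0.33, adjusted p = 0.0295), where 666 of 15805 genes did. With the title number as a covariate, Slc3a1 (0.36, adjusted p = 0.0183) and Slc7a8 (-0.36, adjusted p = 0.0368) passed, where 326 of 15598 genes did. Slc7a7 (0.16, adjusted p = 0.190) and Slc1a1 (-0.30, adjusted p = 0.0503) did not pass.

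The transporters varied together from library to library within a group. Their CPM values were put on a log2 scale and each group's mean was removed, so that neither sex nor genotype enters. Of the 36 pairs of transporters, 33 had a positive Pearson's r, with a median of 0.587. In 15 pairs, all positive, the permutation p passed 0.05 after Benjamini-Hochberg adjustment over the 36 pairs, and in 16 pairs Spearman's rho did (100000 permutations within groups, two-sided, 16 libraries). Omitting the 2 libraries at the extremes of the gene named first, r stayed between 0.528 and 0.932 in those 15. The number of pairs past the threshold ran from 8 without male WT replicate 4 and 9 without female WT replicate 1 to 19 without male LKO replicate 4, and was 16 with each library taken relative to its epithelial marker sum. That step takes the same value from every transporter in a library, so it can itself add a shared pattern.

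The closest pair joined an apical and a basolateral carrier, and the next 3 joined apical carriers. Slc7a9 and Slc16a10 had r = 0.936 and rho = 0.947 (permutation p = 9e-05 and 0.00014, adjusted 0.00108 and 0.00168), and r = 0.932 without the 2 farthest libraries. The peptide carrier Slc15a1 and Slc6a19 had r = 0.918 and rho = 0.885 (permutation p = 4e-05 and 9e-05, adjusted 0.00072 and 0.00162), and r = 0.917 without the 2 farthest. Slc15a1 and Slc7a9 had r = 0.873 and rho = 0.788 (permutation p = 2e-05 and 8e-05, adjusted 0.00072 and 0.00162), and 0.890 without them. Slc6a19 and Slc7a9 had r = 0.860 and rho = 0.821 (permutation p = 0.00017 and 0.00033, adjusted 0.00122 and 0.00198), and 0.877 without them. The closest pair after these joined the membranes again. Slc6a20a and Slc7a8 had r = 0.813 and rho = 0.782 (permutation p = 0.00075 and 0.00083, adjusted 0.00386 and 0.00427), and 0.792 without them.

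Slc3a1 had no pair past the threshold. With Slc7a9, its partner in the exchanger, r was 0.401 and rho 0.479 (permutation p = 0.207 and 0.11, adjusted 0.257 and 0.152), and r was 0.588 without the 2 farthest libraries. With Slc1a1 r was -0.379 and rho -0.259 (permutation p = 0.166 and 0.364, adjusted 0.235 and 0.385), and -0.656 without them. The centred log2 values of Slc3a1 had the smallest SD of the 9, 0.119, and those of Slc16a10 the largest, 0.396.

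**Figure D5:**
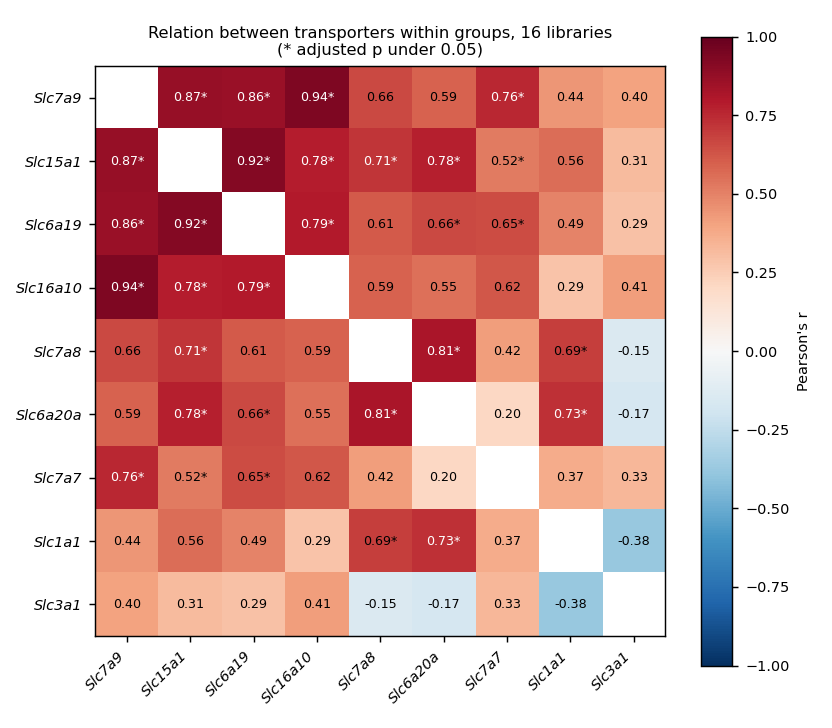
Pearson's r between each pair of the 9 transporters over 16 libraries, from log2 CPM with each group's mean removed; red is positive, blue negative, and an asterisk marks a permutation p under 0.05 after adjustment over 36 pairs. Genes are ordered by their likeness to the mean of the other 8, and r is 0.94 for Slc7a9 with Slc16a10 and below 0.42 in all pairs of Slc3a1.

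The mean of the 9 standardized profiles was lowest in male WT replicate 4 (-1.32) and female WT replicate 1 (-1.23), then in female LKO replicate 1 (-0.81). The first 2 held 579.6 and 978 CPM of cecum and colon markers, female LKO replicate 1 held 46.7, and male LKO replicate 2, with the most (1217), had a profile of -0.32. Among the 3 highest libraries, female WT replicates 4 (0.93) and 3 (0.92) held 302.7 and 43.6 CPM of these markers and female LKO replicate 2 (0.71) 78.1. Sums of villus enterocyte markers were 8054 CPM in male WT replicate 4, 6136 in female WT replicate 1 and 6285 in female LKO replicate 1, against 8630, 7377 and 9815 in the 3 highest. Sums of distal ileum markers were 4230, 5928 and 5073 CPM in the 3 lowest, the first being the lowest of all 16, against 7885, 5805 and 6997 in the 3 highest, the first being the highest of all. Sums of B cell markers were 23.5, 31.0 and 32.2 CPM in the 3 lowest against 25.45, 77.85 and 223.4. With group means removed, the profile's Pearson's r with log2 marker sums ran from -0.46 (cecum and colon) to 0.71 (distal ileum) across 16 libraries. It was 0.67 for villus enterocyte, 0.53 for B cell, 0.35 for epithelial and -0.075 for smooth muscle markers, as a description. The part of tissue makeup in this covariation was not tested.

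Among 10099 other genes with a mean of at least 10 CPM, those most like the mean profile were Mpp1 (r = 0.935), Dgat1 (0.931), Treh (0.929), Slc26a6 (0.922), Dgka (0.919), Cyp4f14 (0.914), Fam118a (0.912), Slc27a4 (0.911), Myo1a (0.908) and Dpp4 (0.905), as a description over the 16 libraries. Dgat1 makes triglycerides, Treh cleaves trehalose, Slc26a6 exchanges anions, Slc27a4 takes up fatty acids, Myo1a is a brush border myosin and Dpp4 a brush border peptidase. The least like it were Dusp6 (r = -0.897), Ildr1 (-0.886), Pvr (-0.877), Tmem128 (-0.852) and Sox9 (-0.851), of which Dusp6 is a phosphatase of ERK signaling and Sox9 a transcription factor of crypt cells.

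The wider amino acid uptake machinery was read from 8 lists of 70 genes, of which 66 were tested in the fits of 16 libraries. LKO against WT over both sexes, 1 of 66 rose and 0 fell by edgeR, beside 0.269% of all genes called: the glycine carrier Slc6a9 was higher in LKO (26.3 against 20.6 CPM, log2 fold change 0.35, SE 0.068, edgeR adjusted p = 0.0321). DESeq2 also called Slc7a5, a light subunit for large neutral amino acids, higher (0.41, adjusted p = 0.0145), and the brush border aminopeptidase Enpep lower (-0.30, adjusted p = 0.00832). In males against females 3 of 66 were higher and 3 lower, beside 11% of all genes called. Npepps, a cytosolic aminopeptidase, was higher by 0.18 (SE 0.049, adjusted p = 0.0249), and so were the transcription factors Hnf4a (0.16, SE 0.038, adjusted p = 0.0126) and Prdm1 (0.34, SE 0.105, adjusted p = 0.0456). Slc6a9 was lower in males (-0.22, adjusted p = 0.0381), as were Slc6a20b (-1.60, 0.370 against 1.14 CPM, adjusted p = 0.00836) and the glutamate carrier Slc1a2 (-1.20, 0.365 against 0.887 CPM, adjusted p = 0.0382), which reached at most 1.975 and 2.135 CPM in any library. For genotype in males edgeR called 0 of 63 listed genes (3 higher and 4 lower at an unadjusted p under 0.05) and DESeq2 0. In females edgeR called 0 of 66 (3 higher and 5 lower unadjusted), while DESeq2 called Slc6a9 higher and Enpep lower.

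The abundant genes of these lists given next gave no call for genotype. Per kilobase, the brush border peptidases Anpep (2661 RPKM) and Naaladl1 (1407 RPKM) stood above all 9 transporters, and Anpep was -0.20 on the log2 scale in LKO over both sexes (SE 0.065, edgeR adjusted p = 0.206). Of the cytosolic peptidases Cndp2 averaged 368.5 and Xpnpep1 179.5 RPKM. Slc3a2, the heavy subunit of Slc7a7 and Slc7a8, averaged 68.6 RPKM and was 0.04 for genotype (SE 0.048) and -0.05 for sex (SE 0.048). Of the other apical carriers Slc6a14 averaged 70.7 and Slc1a5 53.2 RPKM, of the other basolateral ones Slc43a2 45.25, and of carriers at other sites Slc38a10 35.55 and Slc38a2 31.4 RPKM. The scaffold gene Slc9a3r1 averaged 508 RPKM, and the transcription factors Hnf4a 319.5 and Cdx1 134 RPKM.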

How the data were processed

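Groups and replicate numbers came from sample titles. Per the labels and methods, the authors made stranded mRNA libraries, sequenced 100-bp single-end reads, aligned them to mm10 with STAR 2.5.2, kept reads with a single position and at most 4 mismatches, and counted exon reads with HOMER 4.10 without adjustment. The deposited values are raw counts per gene. The authors used DESeq2. From these counts, CPM, RPKM (with the table's transcript lengths) and tests were computed in R 4.3.3 with edgeR 4.0.16 (TMM scaling, filterByExpr, robust quasi-likelihood F-test, Benjamini-Hochberg over all genes tested), with the 8 libraries compared or, for effects over both sexes or genotypes and the interaction, all 16. The SE is the log2 fold change divided by the square root of F. DESeq2 1.42.0, other scalings and filters, a replicate block, covariates, and leaving out each library were alternatives. Pairs of members were compared after group means of log2(CPM + 0.5) were removed. The fits across genes and the test of pairs were tested on simulated data. There edgeR recovered 34.3% to 41.8% of 1.5-fold changes in the interaction and 58.2% to 83.6% in the other comparisons. Of its calls 1.47% to 7.39% were false, and no change under 1.5-fold was simulated. The members and gene lists were chosen with earlier results of these data known. Named genes are the 9 members, of each list the 2 highest by RPKM and up to 5 called by edgeR, the 10 most and 5 least like the mean profile, Slc6a20b, and genes that check labels; Slc7a5, Enpep, Prepl and Oxa1l were added after their values were seen. Some genes that this rule names are not reported here. Separate mice are shown only by title numbers, whose meaning is not stated, so p-values measure the spread between these libraries. Depth was 15739601 to 60324336 counts per library, where 3 counts equal 0.0485 to 0.191 CPM.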

Additional observations from a re-analysis of the deposited data

Results flagged for a closer look

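In male LKO ileum, Slc7a7 stood at 337.4 CPM in replicate 3 and between 262.4 and 273.4 CPM in the other 3 libraries, a gap of 0.853 of the group's range, past Dixon's 95% limit for 4 samples. It was the 1 such value among 36 combinations of transporter and group, where chance gives about 1 in 20. That library also had the lowest smooth muscle marker sum, 3446 CPM. Without it the sex difference of Slc7a7 was 0.15 on the log2 scale (edgeR adjusted p = 0.0846).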

How the results depend on the processing

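With genotype, 0 of 9 transporters were called under every alternative run, in males, in females, over both sexes and in the interaction. Between the sexes in WT, DESeq2 called 1 (Slc3a1), where it called 240 of 14091 genes. With no filter on low counts 1 was called (Slc3a1), beside 71 of 19884 genes. Leaving out female WT replicate 3 called 1 (range 0 to 1 when leaving out 1 library), beside 21 of 15336 genes. Scaling to the epithelial markers called 2 (Slc1a1 and Slc7a8), beside 1559 of 15229 genes. In LKO, DESeq2 and a fit of 4 group means over 16 libraries each called 1 (Slc3a1). They called 1039 of 15037 and 403 of 15598 genes there. Over both genotypes, the smooth muscle covariate left 0, beside 10 of 15598 genes. Leaving out the 5 libraries rich in cecum and colon markers left 1, beside 666 of 15805 genes. The title number as a covariate gave 2 (Slc3a1 and Slc7a8), beside 326 of 15598 genes. Upper quartile scaling gave 3 (Slc3a1, Slc1a1 and Slc7a8), beside 1621 of 15598 genes. Leaving out 1 library gave 1 to 3 calls, with Slc3a1 called each time, and only Slc3a1 without male LKO replicate 1 or 3, female WT replicate 2 or female LKO replicate 3. The covariates of marker sums and the removal of the 5 libraries were chosen after seeing the data. Called pairs among the 36 ran from 8 to 19 when 1 library was left out.

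Of 63 differences (9 transporters in 7 comparisons), 31 changed sign under some alternative, in 107 of 1557 fits; the largest of these 31 was 0.2137 in size, and none had passed the threshold. With the title number as a covariate, genotype in males was 0.3466 for Slc16a10, 0.1411 for Slc6a19 and 0.05506 for Slc7a9, genotype in females -0.1476 for Slc6a19, sex over both genotypes -0.07095 for Slc6a19, and the interaction -0.03614 for Slc1a1, -0.04219 for Slc7a7 and -0.09912 for Slc7a8. In males every WT title number lies below every LKO one, so genotype and the order of these numbers cannot be told apart there. With the smooth muscle covariate, sex in LKO was 0.3203 for Slc6a20a, 0.2311 for Slc15a1, 0.1863 for Slc6a19 and -0.1352 for Slc16a10, sex in WT -0.009001 for Slc6a19, sex over both 0.01197 for Slc15a1, and the interaction -0.02721 for Slc7a7. Without the 5 libraries, genotype in males was -0.2275 for Slc6a20a, sex in WT 0.1686 for Slc15a1 and 0.124 for Slc16a10, sex over both 0.037 for Slc15a1 and 0.1801 for Slc16a10, and the interaction -0.1021 for Slc7a8. With the cecum and colon covariate, sex over both was 0.004598 for Slc16a10 and the interaction 0.001672 for Slc7a9. With epithelial scaling, sex was -0.08409 in WT and -0.1598 over both for Slc6a19, -0.03823 in WT, -0.04149 in LKO and -0.03987 over both for Slc7a9, -0.02907 in LKO for Slc16a10 and -0.01091 in WT for Slc7a7, whose genotype difference in females was -0.004421. Upper quartile scaling gave Slc6a19 0.0008969 for genotype over both sexes and -0.01895 for sex over both, and Slc7a7 -0.02318 for the interaction. For sex in WT, Slc15a1 was 0.002655 by DESeq2 and 0.0008554 with 4 group means. The interaction of Slc7a7 was -0.00189 with the deepest library thinned.

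Leaving out 1 library moved across 0, for genotype in males, Slc1a1 (-0.1423 to 0.01642), Slc6a20a (-0.124 to 0.2412), Slc7a7 (-0.008047 to 0.1227) and Slc7a8 (-0.1303 to 0.03175); in females, Slc15a1 (-0.1748 to 0.02228), Slc6a19 (-0.03183 to 0.2301) and Slc7a9 (-0.1294 to 0.0131); and over both sexes Slc6a19 (-0.06285 to 0.05116). For the interaction it did so for Slc15a1 (-0.1657 to 0.04828), Slc1a1 (-0.03965 to 0.1129), Slc7a7 (-0.08755 to 0.07592), Slc7a8 (-0.03783 to 0.1401) and Slc7a9 (-0.1088 to 0.03986). For sex, these were Slc15a1 (-0.1101 to 0.09061) and Slc6a19 (-0.01966 to 0.2369) in WT, Slc15a1 (-0.1712 to 0.02766), Slc16a10 (-0.05375 to 0.2661) and Slc6a19 (-0.221 to 0.02467) in LKO, and Slc15a1 (-0.08554 to 0.01108), Slc16a10 (-0.1123 to 0.06876) and Slc6a19 (-0.04948 to 0.06977) over both. The cause of these changes was not tested.

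Same-numbered WT and LKO libraries had correlations of their deviations between -0.254 and 0.308. Libraries with different numbers were not compared in this way, so whether replicate numbers pair the libraries was not settled. With a replicate block the count over both genotypes was 3 and every other count 0, and the interaction of Slc7a7 was -0.008857. With 4 libraries a group, differences within 2 printed SE were not detectable, and larger ones could also miss the threshold. An example is Slc3a1 for sex in WT, at 0.37 (SE 0.077, edgeR adjusted p = 0.0685). Thinning the deepest library changed no count of transporters.

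Counts over all genes moved more. By edgeR and DESeq2 these were 8 and 59 for genotype in males, 6 and 156 in females, 42 and 222 over both sexes, 38 and 240 for sex in WT, and 15 and 1039 in LKO. Over both sexes genotype gave 118 with epithelial scaling, 16 with the block, 2 with the title number, 9 with the cecum and colon covariate, and 5 to 102 without 1 library. Over both genotypes sex gave 1723 by edgeR, 5755 with epithelial scaling, 326 with the title number, 666 without the 5 libraries, and 934 to 1956 without 1 library. Without filter the counts were 25, 15, 71 and 139 for genotype in males and females and sex in WT and LKO, and epithelial scaling gave 21 for genotype in females and 1559 and 947 for sex in WT and LKO.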
